A study of Mus musculus with 12 samples.

Results

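The 10 genes described here encode subunits of the SWI/SNF (BAF) chromatin remodelling complex of the mouse. They are Smarcd1, Smarcd2, Smarcd3, Smarca2, Smarca4, Smarcc1, Smarcc2, Smarcb1, Smarce1 and Arid1a. They were chosen by name, with the RPKM of the same 12 libraries already known, and Smarcd1 was known to be higher in shM5 than in shNC C18-4 cells. All 10 were found among the 17995 genes of the expression table. RPKM is the number of reads on a gene scaled to its length and to the size of the library.

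The libraries form 4 groups of 3. The study describes C18-4 as a mouse spermatogonial stem cell line and TM4 as a mouse Sertoli cell line. The labels give IRC as the strain for every sample. Each line received either shM5, a mixture of short hairpin RNAs against the muscarinic acetylcholine receptor M5, or the control hairpin shNC, and both were delivered in a lentiviral vector. Stably transfected cultures were used, so each group stands for 1 transfected population of a line unless the replicates were transfected separately, which the sources used here do not say. P-values therefore measure the spread between these libraries, which may be technical.

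SWI/SNF complexes use the energy of ATP to slide or evict nucleosomes and so open promoters and enhancers. One ATPase, Smarca4 (BRG1) or Smarca2 (BRM), drives each complex. Smarcc1, Smarcc2, Smarcb1 and 1 of the Smarcd proteins form the core, Smarce1 binds DNA, and Arid1a marks the canonical BAF form. Several positions are filled by 1 of 2 or 3 paralogues, and the choice of paralogue differs between cell types. In the testis, Smarca4 is needed for meiosis in male germ cells. The values below are RNA levels, and in bulk samples fewer cells of a type and less RNA per cell cannot be told apart.

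The paralogues are related, so it was examined how much sequence they share. The most alike stretch of the 3 Smarcd coding sequences, in GENCODE M21 transcripts, is shown here because the results turn on telling these genes apart. It is 90 bases long and 70 bases were the same in all 3 genes. Capitals mark the positions at which at least 1 gene differs.
Smarcd1: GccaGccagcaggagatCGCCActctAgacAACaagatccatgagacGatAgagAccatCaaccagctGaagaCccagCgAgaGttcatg
Smarcd2: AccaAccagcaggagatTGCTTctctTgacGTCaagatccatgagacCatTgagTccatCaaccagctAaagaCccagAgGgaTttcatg
Smarcd3: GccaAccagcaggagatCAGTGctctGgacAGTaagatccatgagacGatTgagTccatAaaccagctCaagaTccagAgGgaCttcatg

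The window began at coding base 1234 of Smarcd1, 1282 of Smarcd2 and 1138 of Smarcd3. Within it Smarcd2 differed from Smarcd1 at 15 bases and Smarcd3 at 16. The longest run of identical bases was 21 between Smarcd1 and Smarcd3, and 18 between Smarcd1 and Smarcd2. None of the 3273 windows of 35 bases along the Smarcd1 transcript occurred in a transcript of another subunit. The same held for the windows of Smarcd2 and Smarcd3. With codons aligned, the coding bases were 71.8% identical between Smarcd1 and Smarcd3 over 1425 bases, and 67.4% identical between Smarcd1 and Smarcd2 over 1503. Smarca2 and Smarca4 were 71.8% identical, and Smarcc1 and Smarcc2 65.7%. Of the windows of Smarca2 and Smarca4, 0.67% and 0.39% occurred in other genes.

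Other genes did share sequence with some members. Smarcd1 lies on chromosome 15 at 99702287-99713995 on the plus strand of GRCm38 (RefSeq; Entrez gene 83797). The genes Gm17349 and Gm34939 overlap it on the minus strand, and 11.03% of the 35-base windows of Smarcd1 were found in them. Neither was in the expression table. Smarcd3 shared 28.7% of its windows with Chpf2 on the opposite strand. Smarce1 shared 37.0% of its windows with transcripts of processed pseudogenes and other genes, read in the same direction. Smarcc1 shared 5.49% of its windows in the same direction, most of them with Gm7004. These are like sequences in other transcripts, since no gene was found to overlap Smarce1 and Gm7004 does not overlap Smarcc1. The sources do not say whether reads were counted by strand, so reads of pairs on opposite strands cannot be told apart. For windows shared in the same direction, such as those of Smarce1, counting by strand would not separate the reads.

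The promoter of Smarcd1 is shown because this gene had the largest difference between shM5 and shNC of the 10 in C18-4 cells. It spans 250 bases before to 50 bases after the RefSeq start, at chr15:99702037-99702336 on the plus strand of GRCm38.p6. Capitals mark the letters GGGCGG and CCGGAA on either strand.
Smarcd1: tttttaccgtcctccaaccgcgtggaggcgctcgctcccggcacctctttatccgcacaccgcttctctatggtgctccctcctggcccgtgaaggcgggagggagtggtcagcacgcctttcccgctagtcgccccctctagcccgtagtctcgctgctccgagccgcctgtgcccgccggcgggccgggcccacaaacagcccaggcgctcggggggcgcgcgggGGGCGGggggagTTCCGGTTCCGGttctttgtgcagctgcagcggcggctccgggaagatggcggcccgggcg

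It held 35 CpG dinucleotides, where the median over 32851 RefSeq mouse promoters of this length was 7. GGGCGG occurred 1 time in it and in 35.7% of all these promoters, and CCGGAA occurred 2 times in it and in 14.9% of them. CCAAT was not in this window and was in 37.4% of all promoters, and TATAAA was not in it and was in 13.6%. Such matches describe letters only. The end of Gm17349, on the minus strand, lies within this window in GENCODE.

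Libraries that stand apart bear on every result below. Replicate 3 of both C18-4 groups lay away from replicates 1 and 2, with root mean square log2 distances of 0.376 to 0.491 to them. Replicates 1 and 2 of a group were 0.200 and 0.201 apart, and both replicates 3 were 0.322 apart. In TM4, shNC replicates 1 and 2 were 0.640 to 0.677 from the other 4 libraries and 0.189 from each other. Chrm5, the target gene of shM5, was listed at 0 or 0.01 in all 12 libraries, so the knockdown could not be checked on RNA. The markers bore out the line names in part. Of the spermatogonial genes, Uchl1 was at 76.8 to 140.0 RPKM in C18-4 and listed at 0 in TM4, and Id4 was at 1.64 to 4.71 against 0.2 or less. Etv5, Itga6 and Bcl6b of the same list were higher in TM4. They were at 5.98 to 7.49, 14.75 to 18.69 and 3.56 to 9.66 RPKM there. In C18-4 they were at 1.63 to 2.29, 4.86 to 5.48 and 0.09 or less. In C18-4, Ret, Zbtb16, Ddx4 and Dazl stayed at 0.05 or less, and Wt1, a Sertoli cell factor, was at 53.9 to 72.3. In TM4, Wt1 was at 0.06 to 0.15, and Amh at 0.08 to 0.19, while Sox9 was at 1.11 to 1.74 and Kitl at 18.4 to 49.5. Clu and Inhbb, also of the Sertoli list, went opposite ways. Clu was at 5.55 to 10.48 in C18-4 and at 0.07 or less in TM4. Inhbb was at 0.52 to 1.23 in C18-4 and at 11.97 to 16.76 in TM4.

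Every member was expressed in every library. In C18-4, the mean over 6 libraries was highest for Smarce1, at 66.6 ± 2.59 RPKM (SD), followed by Smarcb1 at 57.3 ± 3.15. Smarce1 did not overlap with Smarcb1, and Smarcb1 did not overlap with the genes after it. Smarcc1, Smarca4, Smarcd2 and Smarcc2 followed at means of 41.9, 41.6, 40.3 and 35.7 RPKM, and their ranges overlapped. Smarcd1 was next at 23.3 ± 6.85. Smarca2, Arid1a and Smarcd3 closed the order at 16.0, 15.0 and 14.8, again with overlapping ranges.

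In TM4 the order began with Smarca4 at 44.7 ± 10.3 RPKM, Smarce1 at 44.5 ± 3.76 and Smarcb1 at 41.8 ± 2.23, which overlapped with each other. Smarcc1 followed at 35.5 and Smarcc2 at 29.99, and their ranges overlapped too. Smarcd2 at 22.9 RPKM did not reach the lowest Smarcc2 library. Smarca2, Arid1a and Smarcd1 had means of 19.6, 17.3 and 16.8 with overlapping ranges. Smarcd3 was the lowest at 7.94 ± 1.76, and its highest library was below the lowest of Smarcd1.

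**Figure D1:**
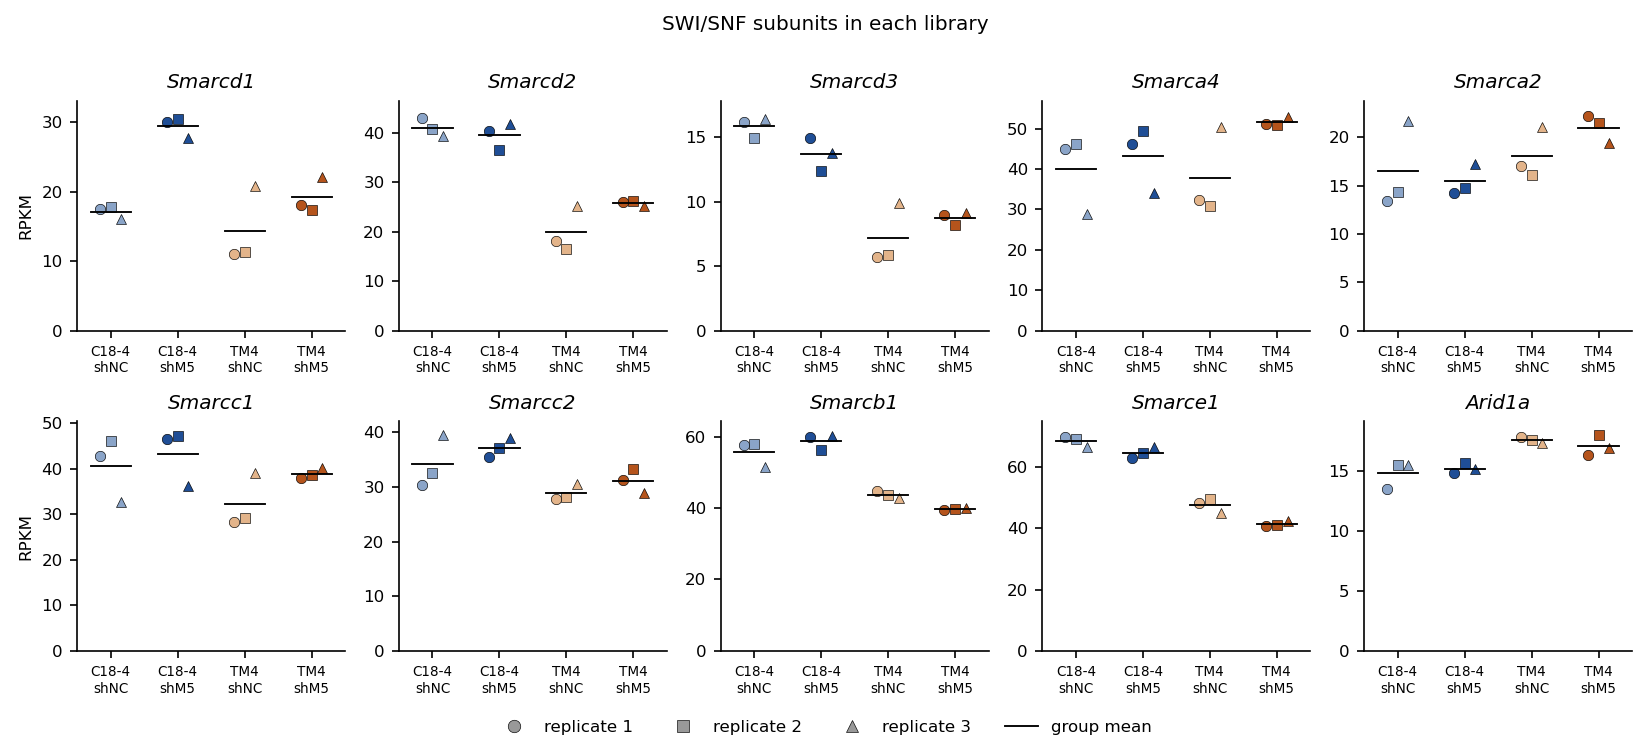
RPKM of the 10 subunits (vertical axes, each from 0) in the 12 libraries, by line and hairpin, with replicates as different symbols and the group mean as a bar. Smarcd1 is the gene whose 3 shM5 libraries in C18-4 (27.8 to 30.5) all sit well above its 3 shNC libraries (16.1 to 17.8), and TM4 shNC replicates 1 and 2 sit apart from replicate 3 for most genes.

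Smarcd1 encodes BAF60A, one of 3 alternative core proteins through which transcription factors contact the complex. In C18-4 shNC cells it was at 17.5, 17.8 and 16.1 RPKM, and in shM5 cells at 30.03, 30.54 and 27.78. The groups did not overlap, and 10.01 RPKM lay between the lowest shM5 and the highest shNC library. The mean was 1.72-fold higher in shM5, and the log2 difference was 0.78 (SE 0.08, n = 3 per group). In TM4 cells it was at 11, 11.33 and 20.80 with shNC, and at 18.15, 17.43 and 22.08 with shM5. There shNC replicate 3 lay among the shM5 libraries, and the log2 difference was 0.47 (SE 0.26).

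Smarcd2 encodes BAF60B, which is known from blood cell development. It was the most abundant of the 3 Smarcd genes in all 12 libraries. In C18-4 it was at 42.9, 40.8 and 39.3 RPKM with shNC and at 40.4, 36.5 and 41.8 with shM5. These groups overlapped, and the log2 difference was -0.05 (SE 0.08). The TM4 values were 18.2, 16.6 and 25.2 with shNC and 26.0, 26.2 and 25.2 with shM5. The highest shNC library, replicate 3, came within 0.03 RPKM of the lowest shM5 library.

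Smarcd3 encodes BAF60C, known from heart and muscle development. In C18-4 it was at 16.2, 14.9 and 16.4 RPKM with shNC and at 14.9, 12.4 and 13.8 with shM5. The log2 difference was -0.21 (SE 0.10), opposite in sign to that of Smarcd1, and the groups overlapped by 0.01 RPKM. In TM4 its level was 5.68, 5.88 and 9.87 with shNC and 8.94, 8.19 and 9.10 with shM5, and shNC replicate 3 was the highest of the 6. Chpf2, which overlaps Smarcd3 on the other strand, was at 5.07, 4.01 and 12.8 in TM4 shNC and at 12 to 12.85 in TM4 shM5. In C18-4, where Smarcd3 was lower with shM5, Chpf2 was higher. There it was at 7.49, 7.66 and 5.37 with shNC and at 9.97, 9.22 and 5.87 with shM5. Its part in the Smarcd3 values was not tested.

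The make-up of the Smarcd family therefore differed between the C18-4 groups. Smarcd1 took 22.9%, 24.2% and 22.4% of the summed Smarcd RPKM in shNC and 35.2%, 38.5% and 33.3% in shM5. The mean share was 23.1% ± 0.94 with shNC and 35.7% ± 2.60 with shM5 (SD, n = 3). Smarcd2 took 55.4% ± 0.61 with shNC and 47.8% ± 2.16 with shM5, and Smarcd3 took 21.4% ± 1.30 and 16.5% ± 0.96. The summed RPKM of the family was 73.9 ± 2.40 with shNC and 82.7 ± 3.02 with shM5. Since the shares add up to the whole, the lower shares of Smarcd2 and Smarcd3 follow in part from the higher Smarcd1. These shares are a description, because Smarcd1 was selected on the same values.

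In TM4 the Smarcd1 share was 31.6%, 33.5% and 37.2% with shNC and 34.2%, 33.6% and 39.2% with shM5, and these groups overlapped. The mean of 34.1% ± 2.88 in TM4 shNC lay close to the 35.7% ± 3.04 in TM4 shM5. The summed Smarcd RPKM was 34.8 and 33.8 in TM4 shNC replicates 1 and 2 and 51.8 to 56.4 in the other 4 TM4 libraries. In those replicates all 3 paralogues were low together, and their shares moved little. C18-4 shNC was thus the group with the lowest Smarcd1 share, and each of its libraries was below each of the other 9.

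**Figure D2:**
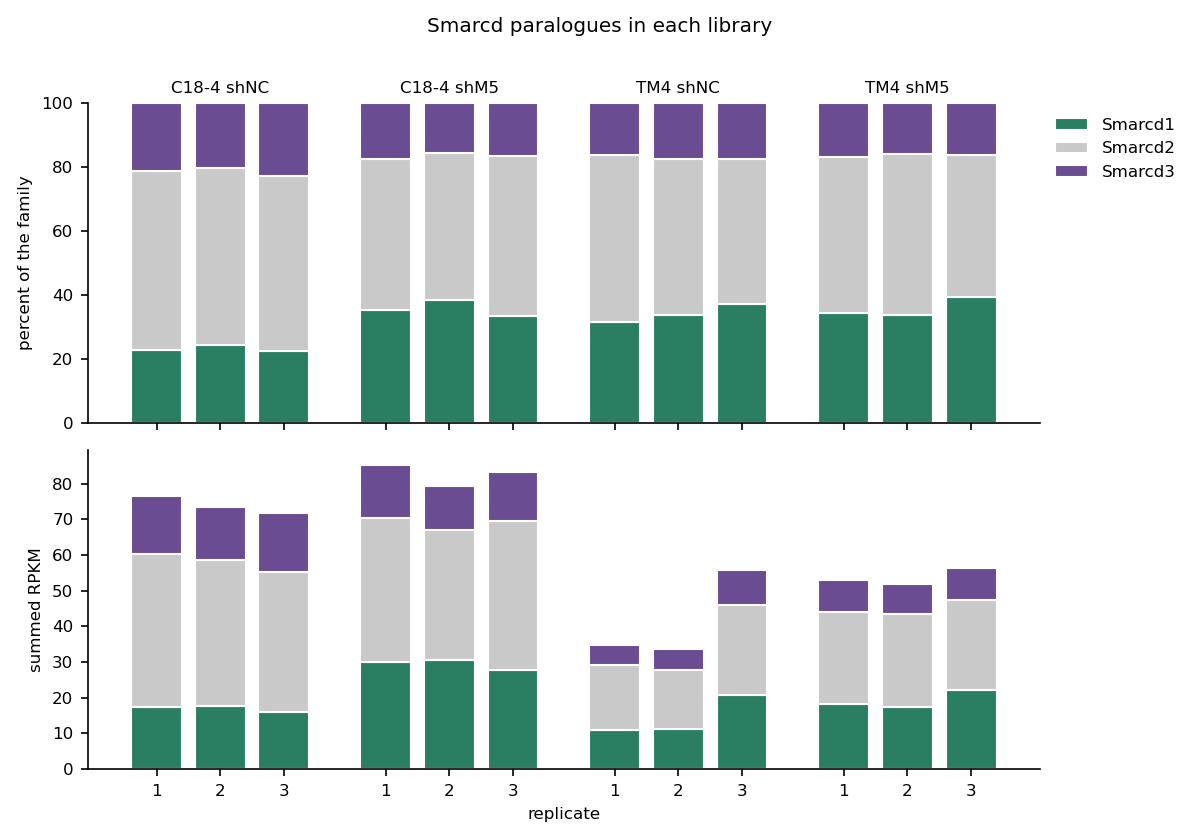
Stacked bars for the 12 libraries, by group and replicate, with the share of Smarcd1, Smarcd2 and Smarcd3 in percent of their sum above and the RPKM of each below. Smarcd1 takes 22.4% to 24.2% in C18-4 shNC and 31.6% or more in every other library, and the sum is low in TM4 shNC replicates 1 and 2.

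Smarca4 and Smarca2 are the alternative ATPases. In C18-4, Smarca4 was at 45.0, 46.3 and 28.9 RPKM with shNC and at 46.3, 49.4 and 34.1 with shM5. Smarca2 was at 13.4, 14.4 and 21.7 with shNC and at 14.3, 14.8 and 17.2 with shM5. In replicate 3 of both groups Smarca4 was lower and Smarca2 higher than in every other C18-4 library. The log2 difference between shM5 and shNC was 0.12 (SE 0.21) for Smarca4 and -0.07 (SE 0.19) for Smarca2. With the replicate block the SE was 0.06 for Smarca4 and 0.09 for Smarca2. Smarca4 was higher with shM5 in 3 of 3 pairs of the same replicate number, and neither gene was called in either fit.

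The ratio of Smarca4 to Smarca2 was 3.35 and 3.22 in C18-4 shNC replicates 1 and 2 and 1.33 in replicate 3. With shM5 it was 3.24, 3.34 and 1.98. The replicate number thus went with a larger shift of this pair than the hairpin did. Smarca4 remained the more abundant of the pair in all 12 libraries. In TM4, Smarca4 was at 32.2, 30.8 and 50.5 RPKM with shNC and at 51.1, 50.8 and 52.9 with shM5. Smarca2 was at 17.0, 16.1 and 21.1 with shNC and at 22.2, 21.4 and 19.4 with shM5. The ratio ran from 1.89 to 2.72 in TM4, with shNC replicates 1 and 2 the lowest.

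Smarcc1 (BAF155) and Smarcc2 (BAF170) are the scaffold proteins of the core. Smarcc1 was at 42.9, 46.1 and 32.7 RPKM in C18-4 shNC and at 46.6, 47.1 and 36.2 in C18-4 shM5. Smarcc2 was at 30.4, 32.6 and 39.4 with shNC and at 35.4, 37.2 and 39.0 with shM5. Smarcc1 exceeded Smarcc2 in replicates 1 and 2, and Smarcc2 exceeded Smarcc1 in replicate 3 of both groups. Their ratio was 1.41, 1.41 and 0.83 with shNC and 1.32, 1.27 and 0.93 with shM5.

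The order of this pair did not change in TM4. Smarcc1 was at 28.4, 29.1 and 39.1 RPKM with shNC and at 38.0, 38.6 and 40.1 with shM5. Smarcc2 was at 27.7, 28.2 and 30.6 with shNC and at 31.2, 33.2 and 29.0 with shM5. The ratio was 1.02 and 1.03 in shNC replicates 1 and 2 and 1.16 to 1.38 in the other 4 libraries.

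**Figure D3:**
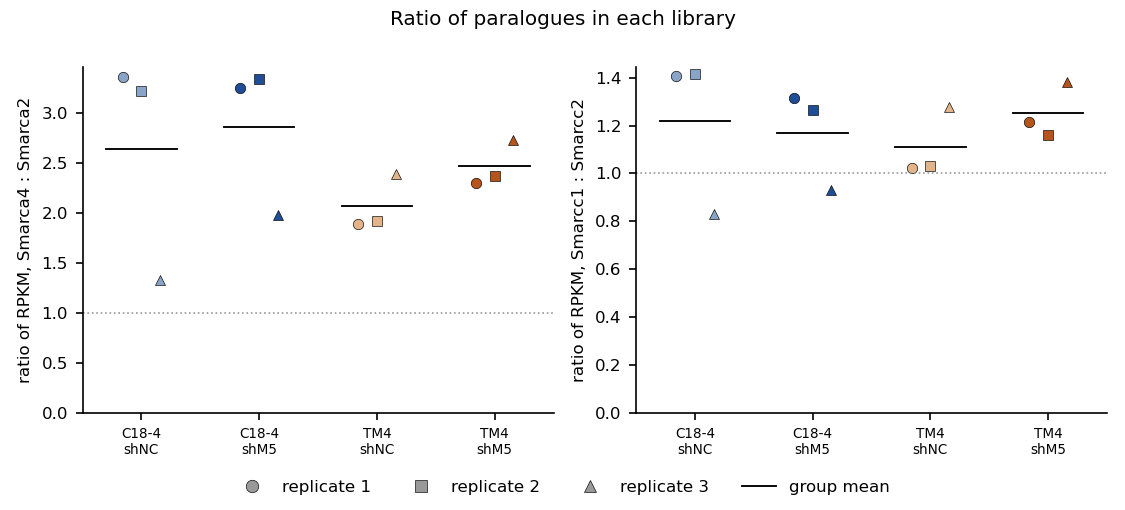
Ratio of RPKM of Smarca4 to Smarca2 on the left and of Smarcc1 to Smarcc2 on the right in the 12 libraries, with symbols for the replicate number, bars for group means and a dotted line at equal levels. In C18-4 the triangles of replicate 3 (1.33 and 1.98, then 0.83 and 0.93) lie below replicates 1 and 2 in both groups.

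Replicate 3 of the C18-4 groups did not overlap with replicates 1 and 2 for 4 of the 10 members, where 50.6% of all genes tested did not. Smarca4 and Smarcc1 were lower there, at 0.67-fold and 0.75-fold of the mean of the other 4 libraries. Smarca2 and Smarcc2 were higher, at 1.37-fold and 1.16-fold. Smarcd1 was lowest in replicate 3 within each hairpin, at 16.05 RPKM with shNC and 27.78 with shM5, and at 0.91-fold over both. The summed RPKM of 12 target genes of the stress factor ATF4 was 1441 and 1362 in both replicates 3 and 901 to 951 in the other C18-4 libraries. Its part in these values was not tested.

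Smarcb1 (SNF5) and Smarce1 (BAF57) have no paralogue in this list. Smarcb1 was at 57.6, 57.96 and 51.6 RPKM in C18-4 shNC and at 59.8, 56.3 and 60.3 in C18-4 shM5. In TM4 it was at 44.8, 43.6 and 42.9 with shNC and at 39.6, 39.9 and 40.1 with shM5. The TM4 groups did not overlap, and the fold of shM5 over shNC was 0.91.

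Smarce1 was at 69.9, 69.0 and 66.6 RPKM in C18-4 shNC and at 63.1, 64.5 and 66.5 in C18-4 shM5. These groups lay apart by 0.13 RPKM, with a log2 difference of -0.08 (SE 0.06). In TM4 it was at 48.3, 49.5 and 45.1 with shNC and at 40.8, 41.0 and 42.3 with shM5, and the groups did not overlap. Smarce1 was lower with shM5 in both lines, at 0.94-fold in C18-4 and 0.87-fold in TM4.

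Arid1a encodes BAF250A, the large subunit that defines canonical BAF. It had the smallest SD in RPKM of the 10 genes in both lines, at 0.81 and 0.64 RPKM over 6 libraries. Relative to the mean, Smarce1 (66.6 ± 2.59 RPKM) varied less than Arid1a (15.0 ± 0.81) in C18-4. Arid1a was at 13.5, 15.5 and 15.5 RPKM in C18-4 shNC and at 14.8, 15.6 and 15.1 in C18-4 shM5. The TM4 libraries were at 17.8, 17.5 and 17.3 with shNC and at 16.27, 17.98 and 16.87 with shM5. Of the summed RPKM of Arid1a, Arid1b and Arid2, Arid1a took 43.3% ± 1.10 in C18-4 shNC and 43.2% ± 0.22 in C18-4 shM5 (SD, n = 3). The share was 46.6% ± 2.99 in TM4 shNC and 45.0% ± 1.12 in TM4 shM5. Arid1b took 24.1% to 26.0% in the 4 group means, and Arid2, which defines the PBAF form, took 28.9% to 31.7%.

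The comparison of shM5 with shNC in C18-4 asks how cells of this line with the hairpins against M5 differ from those with the control hairpin. In limma on log2(RPKM + 0.1), 68 of 11611 genes were called at an adjusted p below 0.05, or 0.586%. Of the members 1 of 10 was called, namely Smarcd1, and nothing is read from this count because the contrast chose the gene. The groups did not overlap for 2 members, Smarcd1 and Smarce1, where 18.9% of all genes did not overlap. The median log2 difference was 0.06 over the members and -0.002 over all genes. With the replicate number as a block, 11.9% of the genes were called, and of the members again Smarcd1 alone was. The C18-4 libraries bore this block out mainly for replicate 3. The log2 difference of Smarcd1 ranged from 0.74 to 0.82 over the 14 settings run.

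The call of Smarcd1 depended on the setting, while its log2 difference stayed at 0.74 to 0.82. The call was lost with no filter on low values, where the smallest limma adjusted p of the members was 0.053. It was also lost when replicate 1 or replicate 2 of either group was left out. Under each of these left-out settings no gene at all was called, so the loss was not particular to Smarcd1. Without replicate 3 of shNC, of shM5 or of both groups the call of Smarcd1 was kept. Beside Smarcd1, the summed spermatogonial markers ran from 131 to 150 RPKM in C18-4 shM5 and from 86.0 to 129 in shNC. Uchl1 made up most of that sum, and 12 of the 14 listed genes were in the table. The summed Sertoli cell markers, of which 12 of 14 were in the table, ran from 83.6 to 92.4 with shM5 and from 77.8 to 79.0 with shNC. Wt1 made up most of that sum, at means of 68.8 with shM5 and 58.6 with shNC. Of the smaller genes, Gata4 was lower with shM5 (4.69 against 6.60) and Rhox5 higher (3.30 against 1.32). The summed mesenchymal markers, all 12 in the table, ran from 1302 to 1630 with shM5 and from 1282 to 1521 with shNC, and overlapped. Within that list, Acta2 was at 34.6 to 61.8 with shM5 and 15.9 to 23.7 with shNC. Tagln was at 69.4 to 93.3 and 36.0 to 48.8, and Col3a1 at 103.01 to 112.75 and 71.9 to 72.4. Some others of that list were lower with shM5 or level. As means with shM5 and then shNC, Vim was at 651.9 and 716.9, Pdgfra at 0.89 and 1.33, and Pdgfrb at 1.01 and 1.59. S100a4 was at 257.5 and 257.1. The part of such shifts in the Smarcd1 difference was not tested.

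The genes next to Smarcd1 did not share its difference in C18-4. Asic1, an acid-sensing ion channel whose gene ends 1157 bases before Smarcd1, had a log2 difference of -0.32 (SE 0.18) at 1.18 to 1.95 RPKM. Gpd1, an enzyme of glycerol metabolism 3592 bases after it, had -0.14 (SE 0.21) below 1 RPKM. Cox14, a mitochondrial assembly factor, had -0.05 (SE 0.09) and Cers5, a ceramide synthase, 0.05 (SE 0.07). Racgap1, a regulator of cytokinesis, had -0.08 (SE 0.07) and Lima1, an actin-binding protein, -0.03 (SE 0.07). None of these 6 genes was called by limma, with adjusted p from 0.555 to 0.927, where 0.586% of all genes were called. Smarcd1 was chosen with its difference known, so nothing is read from its standing apart.

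**Figure D4:**
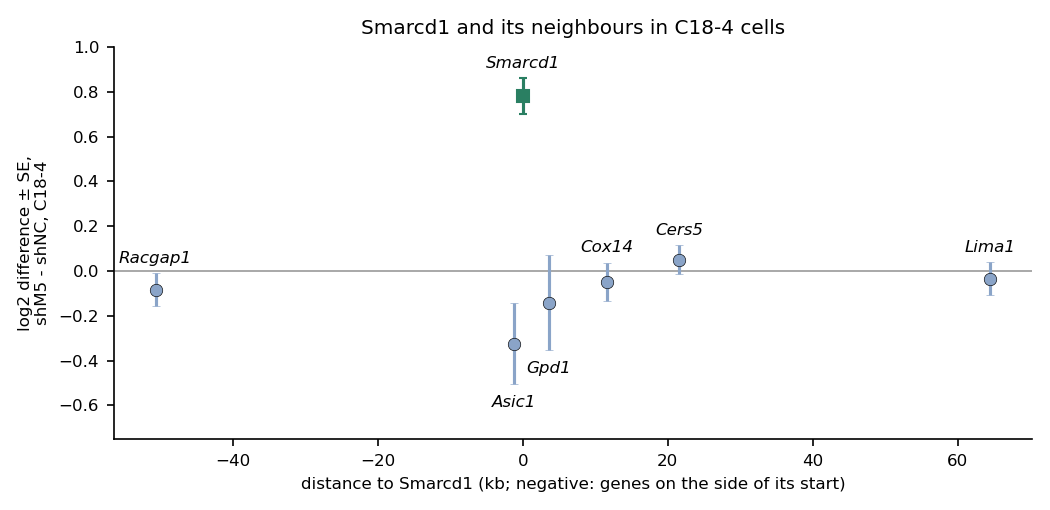
Log2 difference with its SE between shM5 and shNC in C18-4 cells (vertical axis) for Smarcd1 and the 6 genes within 100 kb of it that passed the filter, against the distance between gene ends in kb (horizontal axis). Smarcd1 stands at 0.78 and its neighbours lie between -0.32 and 0.05.

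Outside the 10 members, 17 of 19 other SWI/SNF subunits passed the filter on low values. None of the 17 was called by limma in C18-4, and their median log2 difference was -0.01. An unadjusted p below 0.05 was found for 2 of them and for 1425 of all 11611 genes. With the replicate block 3 of the 17 were called, where 11.9% of all genes were, and nothing is read from this count. Pbrm1 (BAF180), the bromodomain subunit of PBAF, was lower in shM5 with a log2 difference of -0.31 (SE 0.05, limma adjusted p = 0.013). It was at 25.7, 26.8 and 27.7 RPKM with shNC and at 20.3, 21.6 and 23.0 with shM5, with no overlap. Phf10 (BAF45A), another PBAF subunit, was lower too, with -0.33 (SE 0.04, limma adjusted p = 0.0049). Ss18, a subunit of canonical BAF known from its fusion in synovial sarcoma, was higher with 0.21 (SE 0.05, limma adjusted p = 0.039).

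Phf10 also showed the split between replicates. It was at 99.1, 98.9 and 149.8 RPKM in C18-4 shNC and at 76.1, 80.2 and 120.3 in C18-4 shM5. Within each replicate number it was lower with shM5, while replicate 3 of shM5 was above shNC replicates 1 and 2. In TM4 it was at 248.1 and 255.6 in shNC replicates 1 and 2, at 101.2 in shNC replicate 3, and at 92.6 to 96.5 with shM5.

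Among the ATPases of other remodeller families (ISWI, CHD, INO80 and related), 19 of 20 passed the filter in C18-4. None was called by limma, and the median log2 difference was 0.10. An unadjusted p below 0.05 was found for 3 of them, and for 1425 of all 11611 genes. With the replicate block 2 of the 19, Chd3 and Chd9, were called and both were higher in shM5. This count is near the 11.9% of all genes called with the block, and nothing is read from it. Chd3, an ATPase of the NuRD complex, had a log2 difference of 0.30 (SE 0.05, limma adjusted p = 0.013). Chd9 had 0.54 (SE 0.08, limma adjusted p = 0.0084), at 5.05, 5.27 and 4.57 RPKM with shNC and 7.49, 8.08 and 6.23 with shM5.

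The same comparison in TM4 asks the question in the other line. No gene of 11016 was called by limma, which is 0%, though 2866 had an unadjusted p below 0.05, and the smallest adjusted p was 0.192. No member was called, and 3 had an unadjusted p below 0.05. The groups did not overlap for Smarcd2, Smarca4, Smarcb1 and Smarce1, 4 of the 10 members, where 26.8% of all genes did not overlap. The median log2 difference of the members was 0.25, against 0.04 over all genes. None of the 17 other subunits and none of the 18 other ATPases tested was called either, with 3 and 6 at an unadjusted p below 0.05.

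These TM4 values turned on shNC replicate 3. That library lay with the shM5 libraries, and shNC replicates 1 and 2 did not overlap with the other 4 libraries for 9 of the 10 members, where 76.2% of all genes did not. Arid1a was the exception. Smarcd1 was 1.76-fold higher in those 4 libraries than in shNC replicates 1 and 2, Smarca4 1.63-fold, Smarcd3 1.56-fold, Smarcd2 1.48-fold and Smarcc1 1.36-fold. Smarce1 was at 0.86-fold and Smarcb1 at 0.92-fold. The summed ATF4 target genes were at 2410 and 2400 RPKM in shNC replicates 1 and 2 and at 1028 to 1074 in the other TM4 libraries. The part of this in the members' values was not tested.

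Without shNC replicate 3, limma called 8 members in TM4, 6 higher and 2 lower in shM5, and 67.4% of all genes. The share of all genes is so large that nothing is read from the members' count. The log2 difference of Smarcd1 was then 0.77, that of Smarca4 0.71 and that of Smarce1 -0.24. Without shNC replicates 1 and 2, the control was 1 library, assumed to vary like the others. Its 20.8 RPKM of Smarcd1 lay inside the shM5 range of 17.43 to 22.08, so that setting gives no direction for this gene.

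**Figure D5:**
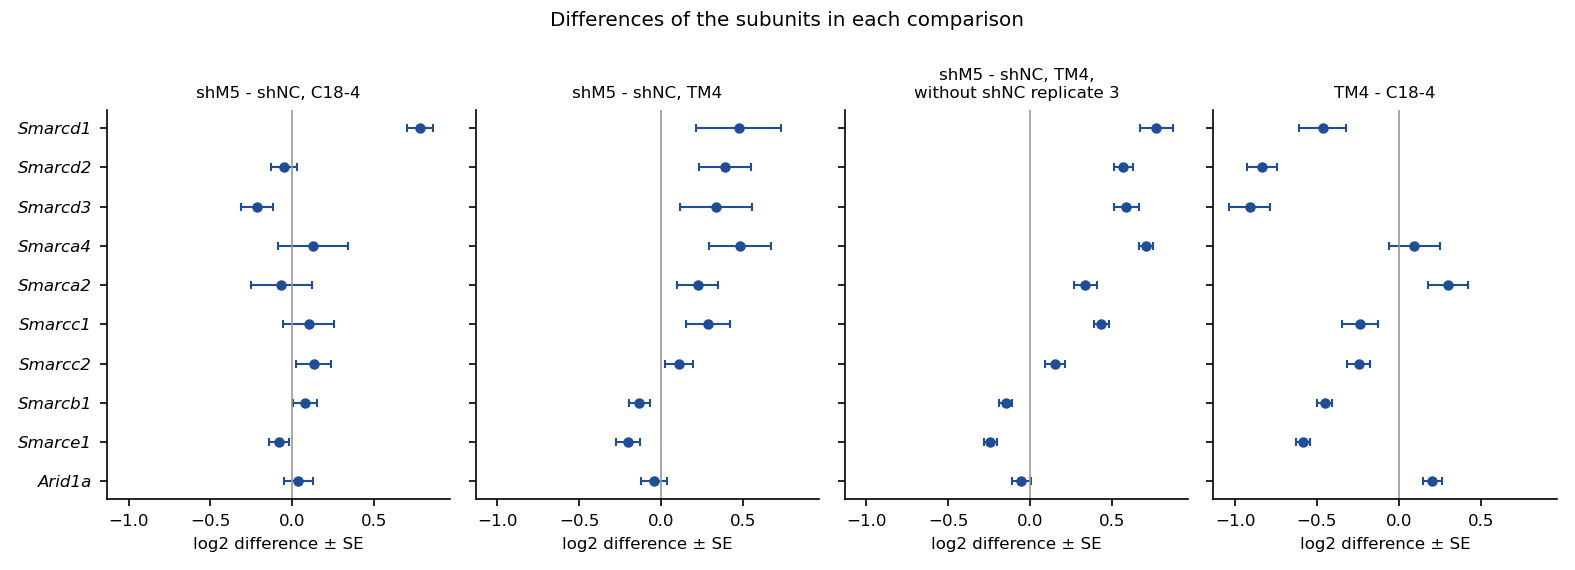
Log2 difference with its SE (horizontal axes) of each subunit between shM5 and shNC in C18-4, between shM5 and shNC in TM4 with all libraries, the same without shNC replicate 3, and between TM4 and C18-4. Smarcd1 stands apart in C18-4 at 0.78, and leaving out 1 TM4 library moves it from 0.47 to 0.77.

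The effect of shM5 in TM4 was set against that in C18-4 by an interaction term. Limma called 12 of 11773 genes, or 0.102%, and no member. Smarcd2 and Smarcb1 had an unadjusted p below 0.05, as did 2463 of the 11773 genes, and nothing is read from these 2. For Smarcd1 the interaction was -0.31 (SE 0.29) on the log2 scale. Its larger difference in C18-4 was thus not shown to differ from that in TM4. None of the other subunits or ATPases was called, with 2 and 4 at an unadjusted p below 0.05.

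TM4 and C18-4 cells were compared over all 6 libraries of each line. Limma called 8596 of 11773 genes, or 73%, and 8 of the 10 members. The lines did not overlap for 5 members, where 52.8% of all genes did not. The median log2 difference was -0.14 over all genes and -0.35 over the members. Quantile normalization moved the median of all genes to 0.02 and that of the members to -0.28, and left each member on its side of 0. It also moved the calls over all genes from 3433 higher and 5163 lower in TM4 to 4439 higher and 4209 lower.

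Smarcd3, Smarcd2 and Smarce1 were the members with the largest differences between the lines. Smarcd3 was at 0.54-fold in TM4 (log2 difference -0.91, SE 0.13), Smarcd2 at 0.57-fold (-0.83, SE 0.09) and Smarce1 at 0.67-fold (-0.58, SE 0.04). Smarcb1 was at 0.73-fold, and these 4 genes did not overlap between the lines. Arid1a was higher in TM4 without overlap, at 1.15-fold (0.21, SE 0.06). Smarca2 was 1.22-fold higher, with overlapping ranges. Smarca4 at 1.07-fold and Smarcc1 at 0.85-fold were not called.

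Smarcd1 was at 0.72-fold in TM4 (log2 difference -0.47, SE 0.14), and its ranges overlapped. The difference between the lines was -0.31 among the shNC libraries and -0.62 among the shM5 libraries. Without TM4 shNC replicates 1 and 2 it was -0.17 and was not called, where 72.3% of all genes were. Smarcd2 at -0.66 and Smarcd3 at -0.66 kept their calls there. The lines were cultured in different media, so line and culture cannot be told apart.

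Of the 17 other SWI/SNF subunits tested, limma called 8 between the lines, where 73% of all genes were called, with 4 higher and 4 lower in TM4. After quantile normalization it called 10, 8 higher and 2 lower, where 73.5% of all genes were called, and the median log2 difference of the list moved from -0.04 to 0.20. Brd9, the bromodomain subunit of the non-canonical form, was lower with a log2 difference of -0.84 (SE 0.13, adjusted p = 0.00013). Dpf2 was lower with -0.54 (SE 0.12, adjusted p = 0.0020), Bcl7b with -0.43 (SE 0.18, adjusted p = 0.049) and Ss18 with -0.12 (SE 0.05, adjusted p = 0.048). Dpf1, which belongs to the neuronal form, was higher with 0.78 (SE 0.17, adjusted p = 0.0017), and Bicral with 0.56 (SE 0.17, adjusted p = 0.0094). Bcl7a was higher with 0.33 (SE 0.09, adjusted p = 0.0050) and Pbrm1 with 0.28 (SE 0.05, adjusted p = 0.00037). The calls of Bcl7b and Ss18 lay close to the threshold. After quantile normalization 2 of the list were called lower, so Ss18 was not the only one of the 4 lower genes to lose its call. With a pseudocount of 1, 3 were called lower. Among the shNC libraries alone the difference of Ss18 turned to 0.040. In those libraries 1 of the 17 was called, where 55.2% of all genes were.

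Several of these genes followed the TM4 split. Dpf2 was at 53.7 and 53.0 RPKM in TM4 shNC replicates 1 and 2, within the C18-4 range of 50.7 to 63.3, and at 30.9 to 33.4 in the other 4 TM4 libraries. Bcl7b was at 46.4 and 45.3 in those replicates and at 18.7 to 23.0 in the others. Dpf1 was at 4.32 and 3.93 there and at 7.94 to 8.79 in the others, against 3.25 to 4.36 in C18-4. Brd9 was lower in all 6 TM4 libraries, at 6.43 to 10.6 against 13.1 to 18.1 in C18-4.

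Of the other ATPases, limma called 12 of 19 between the lines, below the 73% of all genes called, with 7 higher and 5 lower in TM4. After quantile normalization it called 15, 10 higher and 5 lower, where 73.5% of all genes were called. That count lay above the share of all genes, so nothing is read from either count. The median log2 difference of the list moved from 0.11 to 0.23. Smarca1 (SNF2L), an ISWI ATPase, was at 1.56 to 3.82 RPKM in C18-4 and was listed at 0 in 4 TM4 libraries and at 0.02 in the other two. Its relative Smarca5 (SNF2H) was at 79.8 to 102.1 in C18-4 and at 103.4 to 122.3 in TM4, with a log2 difference of 0.28 (SE 0.07, adjusted p = 0.0031). Srcap, which deposits the histone variant H2A.Z, was higher in TM4 with 0.64 (SE 0.09, adjusted p = 3.6e-05), as were Atrx with 0.47 (SE 0.06, adjusted p = 3.8e-05) and Chd9 with 0.45 (SE 0.08, adjusted p = 0.00043). Chd8 was lower with -0.51 (SE 0.07, adjusted p = 6.0e-05), Smarcad1 with -0.50 (SE 0.06, adjusted p = 9.3e-06) and Hells, a helicase linked to DNA methylation, with -0.29 (SE 0.05, adjusted p = 0.00027).

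The genes most like Smarcd1 over the 12 libraries were found by Pearson's r of log2(RPKM + 0.1), centred on each line, among 10459 other genes that averaged 0.5 RPKM or more in each of the lines. They were Fam91a1 (0.98), Pls3 (0.98), Qpctl (0.98), Osbpl5 (0.96) and Tagln (0.96). Pls3 and Tagln encode actin-binding proteins. Qpctl, a glutaminyl cyclase of the Golgi, was at 2.88 to 3.22 RPKM in C18-4 shNC and at 5.04 to 5.46 in C18-4 shM5. Like Smarcd1, it was low in TM4 shNC replicates 1 and 2, at 2.15 and 2.04, against 3.8 to 4.47 in the other TM4 libraries. Ncam1, a neural cell adhesion molecule, had the lowest r, at -0.98. It was at 18.4 to 18.8 in C18-4 shNC and at 13.7 to 14.2 in C18-4 shM5.

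Among the members, Smarcc1 was closest to Smarcd1 with an r of 0.69, at rank 1095 of the 10459 genes. Smarca4 had 0.69, Smarcd2 0.55, Smarcc2 0.44 and Smarcd3 0.40. Smarca2 had 0.18, Smarcb1 -0.05 and Arid1a -0.06. Smarce1 had -0.74, at rank 9789. These coefficients share the same libraries, and the TM4 shNC replicates 1 and 2 and the C18-4 hairpin groups enter all of them, so they are given as a description.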

How the data were processed

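RNA was sequenced from 12 libraries of C18-4 and TM4 cells, with 3 per line and hairpin. The authors selected mRNA with oligo(dT) beads, mapped reads to reference genes with SOAPaligner and computed RPKM, which is the deposited unit. The genome build and the use of strand in counting are not given in the sources used here. Values were given with 2 decimals, and no read counts came with them. From whole-read steps in 147 low genes and the longest GENCODE M21 transcript of each, depth was estimated at about 12800000 mapped reads per library (quartiles 9200000 and 14300000), taken as equal in all libraries. The lowest Smarcd3 value would then rest on about 126 reads, with a counting error of 8.91%. No 2 libraries held identical values.

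Differences were fitted with limma 3.58.1 in R 4.3.3 (trended empirical Bayes, tested on simulated data) on log2(RPKM + 0.1), for genes averaging 0.5 RPKM or more over the libraries compared. Benjamini-Hochberg adjustment ran over all genes tested, and calls were made at an adjusted p below 0.05. Fold changes on this scale understate those of low genes. Folds of group means were taken without a pseudocount. Shared windows of 35 bases and base identity between paralogues (codons aligned through BLOSUM62) were computed in Python from GENCODE M21 transcripts, the longest coding one per gene, and promoters came from RefSeq (GRCm38.p6).

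Replicate numbers pair the C18-4 libraries in part. The deviations of same-numbered libraries from their group means correlated at 0.44, 0.41 and 0.63. Replicates 1 and 2 also correlated across numbers, at 0.34 and 0.34, so the numbers mainly set replicate 3 apart. In TM4 they correlated at 0.07, 0.05 and 0.13, and the numbers were not taken as pairs.

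The members and gene lists were chosen with earlier results of these data known. All members are named, as are up to 8 called genes per list and comparison, by smallest adjusted p, and the 5 genes most like Smarcd1 with the least alike. The genes called in C18-4 only with the block were named after their values were seen. Alternatives covered the pseudocount, the filter, quantile normalization, the threshold of the study, the block and left-out libraries.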

Additional observations from a re-analysis of the deposited data

How the results depend on the processing

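In C18-4, calls over all genes, 68 with all libraries, were 1386 with the replicate block and 9 with the block at the threshold of the study (adjusted p of 0.001 and log2 difference of 1). They were 4 with no filter, 0 at the threshold of the study, 3029 without replicate 3 of both groups, and 0 to 237 with 1 replicate left out. Among the members the calls were 0 with no filter, 0 at the threshold of the study with or without the block, and 0 to 1 with 1 replicate left out. Without both replicates 3 they were 3 (Smarcd1, Smarcc2 and Smarce1). As 3029 of 11549 genes were called there, nothing is read from this count. The other subunits gave 3 calls with the block and 5 without both replicates 3, and the other ATPases 2 and 4. In TM4, where the numbers did not pair the libraries, the block gave 0 calls, as did the fit without it. Without replicate 3 of both groups there were 8016 calls over all genes, 9 members, 13 other subunits and 18 other ATPases. With 1 replicate left out the ranges were 0 to 7433, 0 to 8, 0 to 13 and 0 to 17, and only shNC replicate 3 gave any. Between the lines the threshold of the study left 3101 genes, 0 members, 0 other subunits and 1 other ATPase. The shNC libraries alone called 4 members and 1 other subunit, where 55.2% of all genes were called, and Ss18 then turned to 0.040. The interaction was called for 12 genes, for 27 with a pseudocount of 1, 21 with no filter, 57 after quantile normalization, 2 with the block, 0 at the threshold of the study and 0 to 4477 with 1 replicate left out. Members then ranged from 0 to 2, other subunits from 0 to 9 and other ATPases from 0 to 6, again through TM4 shNC replicate 3. Shares from group medians put Smarcd2 at 54.8% in C18-4 shNC, and no other share moved beyond its SD. Without centring, Polq was most like Smarcd1 (0.97), and Qpctl was the gene shared by both lists of 5. The block fits changed no other count of calls at an adjusted p below 0.05 beyond 1.5 times. The alternatives without TM4 shNC replicates 1 and 2 within TM4, and with the block at the threshold of the study, were added after seeing the data.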
